A study of Rattus norvegicus with 8 samples.

Results

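In the hippocampus of adrenalectomized (ADX) rats, the division genes Cdk1, Top2a and Mki67 and the progenitor gene Sox2 were lower after an acute infusion of corticosterone (CORT) than after vehicle, whereas the neuroblast genes Dcx, Igfbpl1 and Neurod1 (main transcript) lay close to their vehicle level. Cdk1 in the CORT group was at 21.0% of the vehicle value, Top2a at 32.6%, Mki67 at 53.2% and Sox2 at 58.9%. Dcx was at 97.3% and the main Neurod1 transcript at 97.8%. These values belong to a set of 10 genes that follow the production of new neurons, from progenitor and division genes (Sox2, Mki67, Top2a, Cdk1) through the intermediate progenitor gene Eomes to genes of neuroblasts and young neurons (Igfbpl1, Neurod1, Sox11, Dcx, Calb2). The set was chosen by name, with earlier results of these data known, and every transcript row of these symbols was taken. It gave 10 rows for 9 genes, among 16266 rows and 13272 gene symbols in all. Eomes has no row among those analysed.

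Whole hippocampi of 8 ADX rats were sequenced, 4 infused with vehicle (0.45% saline) and 4 with corticosterone-2-hydroxypropyl-beta-cyclodextrin at 0.75 mg/mL, each for 30 min from zeitgeber time (ZT) 2. All 8 had lost both adrenal glands and had been given corticosterone in their drinking fluid after surgery, which was withdrawn before the experiment, so that the vehicle group is a state without circulating adrenal steroid and not an intact rat. The labels give Sprague-Dawley rats of 3 to 4 months and ZT 2, whereas the methods of the study name adult male Lister hooded rats and a collection 2 h after the start of the infusion. For each transcript there is 1 FPKM value per group, a level scaled for the length of the transcript and the depth of sequencing, so that levels of different genes can be compared. Values of individual rats were not analysed here. The variation within a group is therefore unknown, no test between the groups was run, and the depth behind a value cannot be given. A difference is described as the log2 ratio of the CORT over the vehicle value, and a row was counted as lower or higher when the groups differed by more than 1.5-fold.

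New granule neurons are made throughout adult life in the subgranular zone of the dentate gyrus. Radial glia-like stem cells that carry Sox2 give rise to dividing intermediate progenitors marked by Eomes, then to neuroblasts that express Neurod1, Sox11 and Dcx, and then to postmitotic young neurons that pass through a Calb2 phase. Adrenal steroids are known to restrain cell division in this zone, and adrenalectomy is known to raise it in the adult rat. In whole hippocampus these cells are a small part of the tissue, and other cells also divide or carry some of the same genes.

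The tissue label was first set beside markers of hippocampal neurons. Of 14 such markers 12 have a row, and their summed level was 3021 FPKM after vehicle and 3275 FPKM after CORT. Fibcd1 and Spink8 have no row. Of the 13 rows, 12 lay within 1.5-fold. Genes known to be raised by glucocorticoids were higher in the CORT group by more than 1.5-fold in 13 of 18 rows, against 4.21% of all rows. Their median log2 ratio was 0.85, and Pdk4 was at 1.39 FPKM after vehicle and 8.11 FPKM after CORT. This list, too, was chosen with earlier results of these data known, so the count is a description. The 1 lower row of that list was Mt1, a metallothionein, at 156 and 52.7 FPKM. The other Mt1 row (-0.26) and Mt2A (-0.51), named after their values were seen, were also below 0 but within 1.5-fold. The median log2 ratio of all rows was 0.02.

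Of the 10 rows of the neurogenesis set, 4 were lower in the CORT group by more than 1.5-fold and 0 were higher, against 4.91% of all rows lower and 4.21% higher. As the set was chosen with earlier results known, these shares are a description and no independent evidence. Their median log2 ratio was -0.28. The share of rows past this fold depends on the level of a transcript. Among the 7615 rows with a mean FPKM of 1 to 10, 6.30% were lower and 5.32% higher. Among the 7819 rows over 10 FPKM the shares were 1.09% and 1.38%, and among the 832 rows under 1 FPKM they were 28.0% and 20.7%. Mki67, Top2a and Cdk1 belong to the middle class and Sox2 to the highest, so each member is set beside its own class in what follows. Every row of the table has at least 0.80 FPKM in its higher group, so a row with a lower mean than that is present only if its groups differ. Sox2 was above this level in both groups. The CORT values of Mki67 (0.743 FPKM), Top2a (0.572 FPKM) and Cdk1 (0.616 FPKM) were below it. These 3 genes thus have a row through their vehicle value. Over all rows, 423 were under 0.80 FPKM in CORT alone and 349 in vehicle alone.

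**Figure D1:**
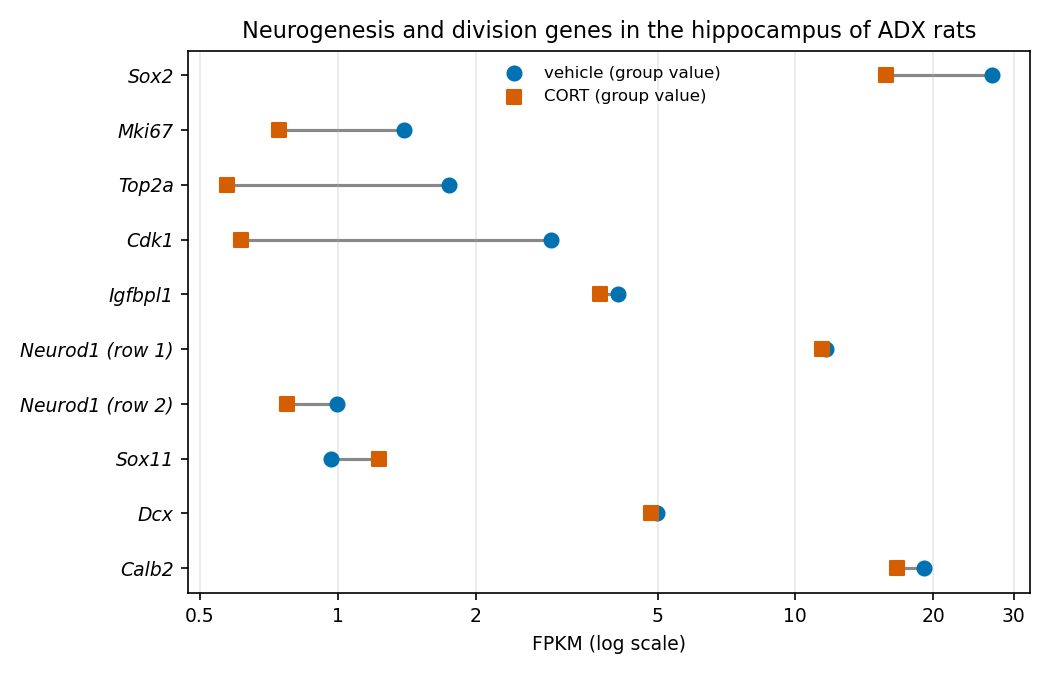
FPKM on a log scale (x axis) of the 10 transcript rows of the set (y axis), with circles for the vehicle group value, squares for the CORT group value and a line joining them; no error can be drawn. Cdk1, Top2a, Mki67 and Sox2 are separated, Cdk1 from 2.93 to 0.616 FPKM, while Dcx and the first Neurod1 row nearly coincide.

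Without a pseudocount, the 3 division genes had the lowest ratios of the set. Cdk1, the kinase that drives entry into mitosis, was at 2.93 FPKM after vehicle and 0.616 FPKM after CORT (chromosome 20 of rn6, 20576376 to 20591549), a log2 ratio of -2.25. Of the 7615 rows in its class, 22 had a lower ratio. Top2a, the topoisomerase that untangles sister chromatids (chromosome 10, 86901006 to 86932154), was at 1.75 FPKM after vehicle and 0.572 FPKM after CORT. Its log2 ratio of -1.62 was undercut by 45 rows of the class, or 0.591%. Mki67 encodes Ki-67, the antigen used most widely to count cells in cycle (chromosome 1, 207993894 to 208020454). Its level was 1.40 FPKM after vehicle and 0.743 FPKM after CORT, a log2 ratio of -0.91, and 2.64% of the class had a lower ratio. The summed level of the 3 genes was 6.08 FPKM after vehicle and 1.93 FPKM after CORT, or 31.7% of vehicle. All of them were low transcripts. In the vehicle group the order of level in the set was Sox2, Calb2, Neurod1, Dcx, Igfbpl1, Cdk1, Top2a, Mki67 and Sox11, and in the CORT group the 3 division genes were the lowest, below Sox11. Which neighbours in these orders differ cannot be said without values per rat. After vehicle, 10.3% of all rows were below Mki67 and 23.2% below Cdk1, and after CORT 1.19% to 2.24% of all rows were below any of the 3. In RNA from whole tissue, fewer dividing cells and less of each transcript per dividing cell cannot be told apart.

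With a pseudocount of 1 FPKM, which shrinks the ratios of low transcripts, the log2 ratios were -1.28 for Cdk1, -0.81 for Top2a and -0.46 for Mki67, so that Mki67 was then within 1.5-fold and nearer to 0 than Sox2, at -0.73.

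The promoters of these 3 genes share letters known from division genes. As the 3 were chosen as division genes, the match is a description and is independent of CORT. Genes of late S, G2 and M phase are known to carry a cell cycle genes homology region, TTTGAA or the variant TTCGAA, bound by the MuvB complexes that hold them silent in resting cells, together with CCAAT boxes, bound by NF-Y. RefSeq promoter windows (GRCr8) of 300 bases, 250 of them before the start, were matched by symbol for 9 of the 10 genes and searched for these words on both strands. Calb2 has no entry. The 250 bases before the start are printed for the 3 division genes, because they hold several copies of both words, and for Neurod1, whose level was nearly the same in both groups, for contrast. Capitals mark the homology region, which reads TTCAAA where TTTGAA is on the other strand, and the CCAAT box, which reads ATTGG where it is on the other strand. The Mki67 stretch lies at chr1:199952594-199952843 on the minus strand, Top2a at chr10:84473094-84473343 on the minus strand, Cdk1 at chr20:19265043-19265292 on the plus strand and Neurod1 at chr3:84770455-84770704 on the minus strand.
Mki67: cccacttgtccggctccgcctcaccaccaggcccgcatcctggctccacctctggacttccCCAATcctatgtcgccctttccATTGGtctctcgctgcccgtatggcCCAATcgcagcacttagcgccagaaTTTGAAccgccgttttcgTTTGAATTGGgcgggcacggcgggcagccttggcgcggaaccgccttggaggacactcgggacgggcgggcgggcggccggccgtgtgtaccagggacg
Top2a: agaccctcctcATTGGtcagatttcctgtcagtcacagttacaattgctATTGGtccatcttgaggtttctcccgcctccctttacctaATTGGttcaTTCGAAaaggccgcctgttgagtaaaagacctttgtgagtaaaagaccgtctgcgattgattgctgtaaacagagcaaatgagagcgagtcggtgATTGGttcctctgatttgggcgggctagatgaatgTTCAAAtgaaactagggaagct
Cdk1: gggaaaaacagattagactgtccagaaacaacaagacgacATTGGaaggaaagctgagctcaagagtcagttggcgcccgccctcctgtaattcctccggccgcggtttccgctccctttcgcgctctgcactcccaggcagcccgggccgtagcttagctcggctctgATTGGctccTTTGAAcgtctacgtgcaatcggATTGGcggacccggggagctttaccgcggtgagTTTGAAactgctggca
Neurod1: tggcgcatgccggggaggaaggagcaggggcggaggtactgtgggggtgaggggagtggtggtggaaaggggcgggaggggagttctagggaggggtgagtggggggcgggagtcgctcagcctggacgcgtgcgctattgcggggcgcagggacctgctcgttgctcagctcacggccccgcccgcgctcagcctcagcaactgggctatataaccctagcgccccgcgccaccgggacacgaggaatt

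Mki67 has 2 copies of TTTGAA and 4 of CCAAT, and 1 pair of these overlaps by a shared base. Top2a has 1 TTTGAA, 1 TTCGAA and 4 CCAAT, and Cdk1 has 2 TTTGAA and 3 CCAAT. The Neurod1 window holds neither word. Of all 33469 promoter windows 7.95% hold at least 1 of both kinds, and 0.299% hold at least 2 of both kinds, as these 3 do. Sox2 and Sox11 have 1 of each kind, Igfbpl1 has TTTGAA alone, and Dcx and Eomes have CCAAT alone. Sox11 was not lower after CORT, so the words did not separate the lower members from the rest. The word AGAACA, the core of a glucocorticoid receptor site, was found in 1 of the 9 windows, that of Igfbpl1, against 20.7% of all windows. The full receptor element, GAACA and TGTTC separated by 3 bases, was in 0 of the 9 and in 0.0508% of all windows. These are matches of letters in a short window and say nothing of binding.

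The other genes of the division programme were taken from lists of 26 genes of G1/S and DNA replication and 50 genes of G2, mitosis and cytokinesis. Of these 76 genes 48 have a row and 28 do not, 23 of them in the G2 and mitosis list, so the counts are over the genes that have one. In the G2 and mitosis list 10 of 29 rows were lower by more than 1.5-fold and 0 were higher, against 4.91% and 4.21% of all rows. Of the 29 ratios 27 were below 0, against 7317 of 16266 over all rows, and their median was -0.40. Of the 10 lower rows 5 have a mean under 1 FPKM (Ccna2, Knstrn, Ncaph, Ttk and Pbk), the class in which 28.0% of all rows were lower. These 5 rows, and that of Ube2c, were under 0.80 FPKM after CORT and so are present only through their vehicle value. Pbk was named after its values were seen. Ube2c, which helps the anaphase-promoting complex to mark cyclins for destruction, was at 2.22 FPKM after vehicle and 0.617 FPKM after CORT. Cdc20, an activator of that complex, was at 2.00 and 0.817 FPKM, and Ccna2, the cyclin of S and G2 phase, at 1.32 and 0.531 FPKM. Lower values were also found for Knstrn, a spindle protein (log2 ratio -1.93), the condensin subunit Ncaph (-1.25) and the checkpoint kinase Ttk (-1.18). Aurkb, named after its values were seen, was the exception, with log2 ratios of 0.06 and 0.33 for its pair of rows. Of 42 promoter windows found for this list, 27 hold both kinds of word, or 64.3%, against 7.95% of all windows.

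In the DNA replication list 5 of 22 rows were lower by more than 1.5-fold and 0 were higher, against 4.91% and 4.21% of all rows. Of the 22 ratios 18 were below 0, with a median of -0.30. The subunits of the MCM helicase were not alike. Mcm5 was at 1.56 FPKM after vehicle and 0.634 FPKM after CORT, Mcm3 at 1.94 and 0.823 FPKM, and Mcm6 at 3.39 and 1.97 FPKM. Mcm2, at 2.75 and 1.85 FPKM, was within 1.5-fold, as were Mcm7, at 9.17 and 6.77 FPKM, and Mcm4, at 5.04 and 5.07 FPKM, the last pair named after their values were seen. Tk1, the thymidine kinase of S phase, was at 4.40 and 2.52 FPKM, and Gins1, a partner of the helicase, at 1.33 and 0.674 FPKM. Gins2, another partner named after its values were seen, was at 11.96 and 13.02 FPKM. The ratios of this list were all nearer to 0 than those of Cdk1 and Top2a. Both kinds of word were found in 2 of 21 promoter windows of this list, or 9.52%.

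Taking both lists together in the class of 1 to 10 FPKM, 10 of 40 rows (25.0%) were lower and 0 higher. The shares of the whole class were 6.30% and 5.32%. Among the lower rows, Ube2c, Mcm5 and Gins1 were at 0.617, 0.634 and 0.674 FPKM after CORT. They are thus under 0.80 FPKM there and have a row through their vehicle value. Genes without a row are not counted. Of these 40 ratios 36 were below 0, against 49.7% of the 7615 rows of the class, and their median was -0.35 against 0.00.

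**Figure D2:**
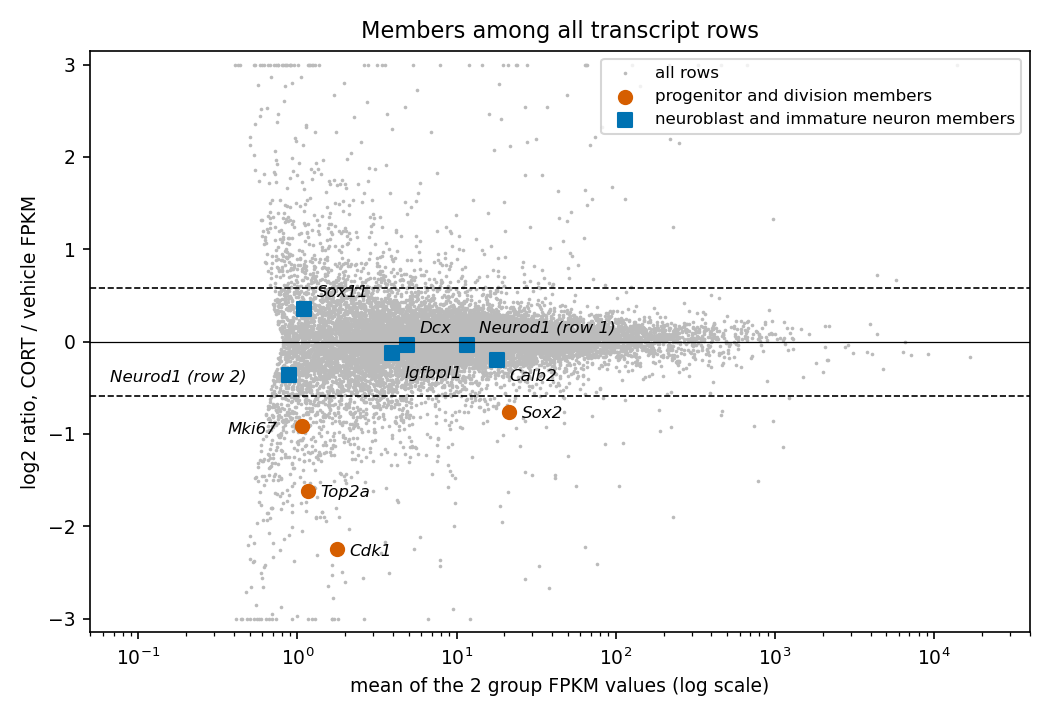
Log2 ratio of CORT over vehicle FPKM (y axis) against the mean of both group values on a log scale (x axis) for 16266 transcript rows (grey), with the progenitor and division members as circles and the neuroblast and immature neuron members as squares; dashed lines mark 1.5-fold, and 78 rows past a log2 ratio of 3 in size are drawn at the edge. Cdk1, Top2a, Mki67 and Sox2 lie below the lower line and the other 6 rows between the lines.

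Sox2, the transcription factor that keeps neural stem cells undifferentiated and that astrocytes also express, was the only member over 10 FPKM that differed by more than 1.5-fold. Its level was 26.8 FPKM after vehicle and 15.8 FPKM after CORT (chromosome 2, 121165136 to 121167545), a log2 ratio of -0.76. Of the 7819 rows in its class, 42 had a lower ratio, or 0.537%. With a pseudocount of 1 FPKM or centring on the median of all rows it stayed past 1.5-fold. In the vehicle group Sox2 was the highest of the set, whereas in the CORT group Calb2, at 16.7 FPKM, was above it.

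Other genes of stem and radial glia-like cells were mixed. Of 18 listed genes 16 have a row. Of their 18 rows 5 were lower and 2 higher by more than 1.5-fold, against 4.91% and 4.21% of all rows. Their median log2 ratio was -0.20. Nes, the gene of the stem cell filament nestin, has no row. Vim, the intermediate filament of immature glia, was at 117 FPKM after vehicle and 54.4 FPKM after CORT. Sox9, whose row is also counted in the astrocyte list below, was at 6.86 and 3.70 FPKM. Hes5, a target of Notch, was at 19.7 and 12.8 FPKM, and Fabp7, the fatty acid binding protein of radial glia, at 250 and 168 FPKM. The part of astrocytes in the values of this list was not tested. Pax6 and Prom1 each have a pair of rows with opposite signs. For Pax6 the larger row was at 2.92 and 1.36 FPKM and the smaller at 0.555 and 1.03 FPKM, and for Prom1 the larger was at 4.09 and 2.48 FPKM and the smaller at 0.496 and 1.65 FPKM. Hopx, a marker of resting stem cells named after its values were seen, was at 39.6 and 38.0 FPKM, so the genes of this list were not all lower by that fold. With 1 row per symbol, the one of highest mean level, the median of the list was -0.32.

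Astrocyte markers are set beside Sox2 because astrocytes carry it. All 13 have a row, and their summed level was 4046 FPKM after vehicle and 3665 FPKM after CORT. Of 24 rows 3 were lower and 4 higher by more than 1.5-fold, against 4.91% and 4.21% of all rows. The median was 0.01 and 0 rows were at 0. The widest ratios were in minor rows of Aqp4 (0.0126 and 2.55 FPKM), Aldoc (0.876 and 2.94 FPKM) and Aldh1l1 (0.931 and 3.05 FPKM), all higher after CORT. Main rows of Aqp4 and Aldh1l1 had the opposite sign, which is that of Sox2, whereas the main Aldoc row was at 501 and 557 FPKM. Over the 24 rows, 12 ratios were below 0 and 12 above. The largest Aqp4 row was at 93.6 and 65.5 FPKM and the next at 60.1 and 47.6 FPKM, and the larger Aldh1l1 row was at 6.39 and 4.02 FPKM. Gfap, named after its values were seen, was at 970 FPKM after vehicle and 517 FPKM after CORT. S100b, named likewise, was at 1066 and 1095 FPKM. The part of astrocyte content in the value of Sox2 was not tested.

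Among the neuroblast genes, Dcx, Igfbpl1 and the main Neurod1 row lay close to their vehicle level. Dcx, a microtubule-binding protein of migrating neuroblasts (X chromosome, 115098674 to 115175299), was at 4.98 FPKM after vehicle and 4.84 FPKM after CORT, a log2 ratio of -0.04. Igfbpl1, a secreted protein of young neurons (chromosome 5, 61395407 to 61410812), was at 4.09 and 3.75 FPKM, a log2 ratio of -0.12. Both ratios were inside the bulk of their class, of which 43.3% and 32.0% had a lower ratio. Neurod1, a basic helix-loop-helix factor that new granule neurons need for survival, has 2 rows at the same locus (chromosome 3, 66403183 to 66436668), where 1 row of another symbol also lies. The first row was at 11.7 FPKM after vehicle and 11.4 FPKM after CORT and the second at 0.994 and 0.773 FPKM, log2 ratios of -0.03 and -0.36. Summed, Neurod1 was at 12.7 and 12.2 FPKM. Sox11, a factor that switches on Dcx and other neuronal genes (chromosome 6, 46629973 to 46631983), was the one member that was higher after CORT, at 0.966 and 1.23 FPKM. Its log2 ratio of 0.35 was within 1.5-fold, and 11.7% of its class had a higher one. The summed level of the 4 neuroblast genes was 22.7 FPKM after vehicle and 22.0 FPKM after CORT, or 97.0% of vehicle. Neurod1 made up 12.7 and 12.2 FPKM of these sums, and the part of cells other than neuroblasts in them was not tested. The summed level of the 3 division genes was at 31.7% of vehicle. Whether these percentages differ beyond the spread between rats was not tested.

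Calb2 encodes calretinin, a calcium-binding protein of postmitotic young granule neurons, of some interneurons and of Cajal-Retzius cells (chromosome 19, 41482727 to 41509658). Its level was 19.1 FPKM after vehicle and 16.7 FPKM after CORT, a log2 ratio of -0.20, and 7.47% of its class had a lower ratio. Marker lists of interneurons, of Cajal-Retzius and hilar mossy cells, and of thalamus and habenula did not share 1 direction. None of these lists was limited to cells with Calb2. Interneuron markers had a median log2 ratio of 0.26 over 15 rows, 12 of them above 0, and a summed level of 596 and 726 FPKM. Their widest ratios were those of a minor row of Penk (-1.43), Lhx6 (0.81) and Vip (0.53), while the main row of Penk was at 20.6 and 20.5 FPKM. Markers of Cajal-Retzius and hilar mossy cells have a row for 5 of 9 genes, without Trp73, Lhx1, Lhx5 and Ebf3. They were at 16.0 and 17.9 FPKM in sum, with a median of 0.18, and the largest ratio was that of Drd2 (0.90). Reln, the secreted protein of Cajal-Retzius cells, was at 5.38 and 7.18 FPKM. The same row is also counted in the interneuron list, so its value cannot be assigned to Cajal-Retzius cells. Markers of thalamus and habenula, which lie beside the hippocampus, have a row for 12 of 16 genes, without Gbx2, Pou4f1, Chrnb3 and Tac2. Their sums were 79.1 and 57.5 FPKM, with 7 of 14 rows lower and 3 higher, against 4.91% and 4.21% of all rows. Their median was -0.54. Their widest ratios were those of minor rows of Kcnip1 (0.0041 and 1.69 FPKM) and Prkcd (0.184 and 1.60 FPKM), higher after CORT. Main rows of these genes had the opposite sign, at 16.3 and 14.1 FPKM for Kcnip1 and 10.7 and 4.53 FPKM for Prkcd. Next was Chrna3, at 3.40 and 0.557 FPKM, a row that is also counted in the pineal list below. The part of the cells of these lists in the value of Calb2 was not tested.

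The wider list of neuroblast and immature neuron genes had ratios on both sides of 0, from -0.87 to 0.62. Of 30 listed genes 23 have a row. Of their 30 rows 1 was lower, 1 was higher and 28 lay within 1.5-fold, with a median log2 ratio of 0.04. Of all rows, 4.91% were lower and 4.21% higher. The lower row was that of Draxin, an axon guidance protein, at 1.05 FPKM after vehicle and 0.576 FPKM after CORT, and the higher that of Neurog2, a proneural factor, at 0.913 and 1.40 FPKM. Dlx5, a factor of GABAergic precursors, had a log2 ratio of 0.57, and 1 row each of Nnat, Ncam1 and Stmn1 had -0.56, 0.52 and -0.49. The neuroblast list is not specific to neuroblasts. Neurod6 and Prox1 are named because they are also among the hippocampal neuron markers above. Stmn2, named after its values were seen, was at 319 and 345 FPKM, far above Dcx. The part of neuroblasts in the median of the list was not tested. In the list of mature dentate granule neurons, of which 9 of 12 genes have a row, 1 of 11 rows was lower and 0 were higher, with a median of 0.01. That row was Npnt, at 1.24 and 0.672 FPKM. The summed level of the mature list was 330 FPKM in both groups.

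**Figure D3:**
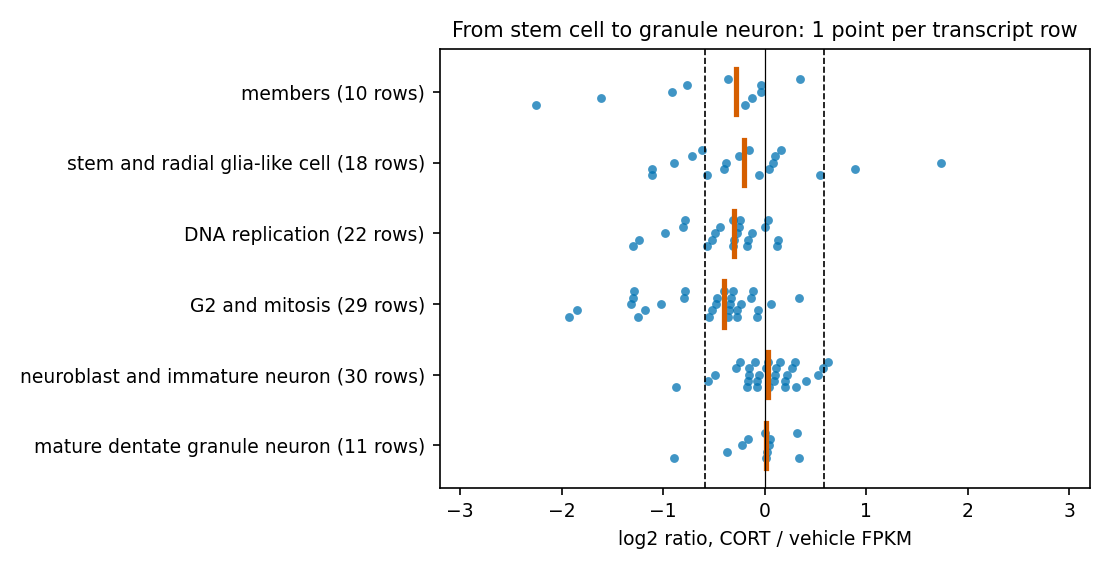
Log2 ratio of CORT over vehicle FPKM (x axis) for each transcript row of the 10-gene set (top) and of 5 lists from stem cell to mature granule neuron (y axis), with 1 point per row, a thick bar at the median and dashed lines at 1.5-fold. The medians of DNA replication (-0.30) and of G2 and mitosis (-0.40) lie left of 0, and those of the neuroblast list (0.04) and of the mature granule neuron list (0.01) at 0.

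Cells of other kinds also divide in or beside the hippocampus, and several of their markers were lower after CORT. The counts of marker rows that follow stand beside 4.91% of all rows lower and 4.21% higher. Oligodendrocyte progenitors, the most numerous dividing cells of the adult brain outside the neurogenic zones, were nearly level. Of 13 markers 11 have a row, 0 of 15 rows were past 1.5-fold, the median was -0.05, and the summed level was 223 FPKM after vehicle and 215 FPKM after CORT. Their widest ratio was that of Bmp4 (-0.39).

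For microglia all 15 markers have a row, the sums were 531 and 478 FPKM, 2 of 17 rows were lower and 1 higher, and the median was -0.25. Ptprc (-1.53) and Cd68 (-0.91) were lower and Tmem119 (0.96) was higher. Endothelial markers (10 of 12 with a row) were at 121 and 99.96 FPKM, with 3 of 11 rows lower, a median of -0.44 and Kdr at a log2 ratio of -1.01.

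Meningeal markers (13 of 15 with a row) were at 1742 FPKM after vehicle and 851 FPKM after CORT, with 8 of 15 rows lower, 0 higher and a median of -0.73. Col3a1 was at 10.7 and 4.35 FPKM. Blood markers (8 of 10 with a row) were at 1441 and 833 FPKM, with 5 of 9 rows lower, 1 higher and a median of -0.75. Choroid plexus markers (13 of 14 with a row) were at 7142 and 7093 FPKM, with 0 of 16 rows lower, 1 higher and a median of -0.03. Pineal markers, set beside Neurod1 because the pineal gland carries it, have a row for 6 of 16 genes, and the melatonin enzymes Aanat and Asmt have none. They were at 26.3 FPKM after vehicle and 10.5 FPKM after CORT, with 5 of 6 rows lower and a median of -2.95, whereas Neurod1 was nearly level. None of these marker rows was at 0. Pineal, blood, meningeal, thalamic and habenular, endothelial and microglial markers had medians below 0, from -0.25 (microglia) to -2.95 (pineal), as the division lists did. Those of oligodendrocyte progenitors (-0.05) and choroid plexus (-0.03) were also below 0 but nearer to it. The part of all these cells in the values of Cdk1, Top2a and Mki67 was not tested.

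**Figure D4:**
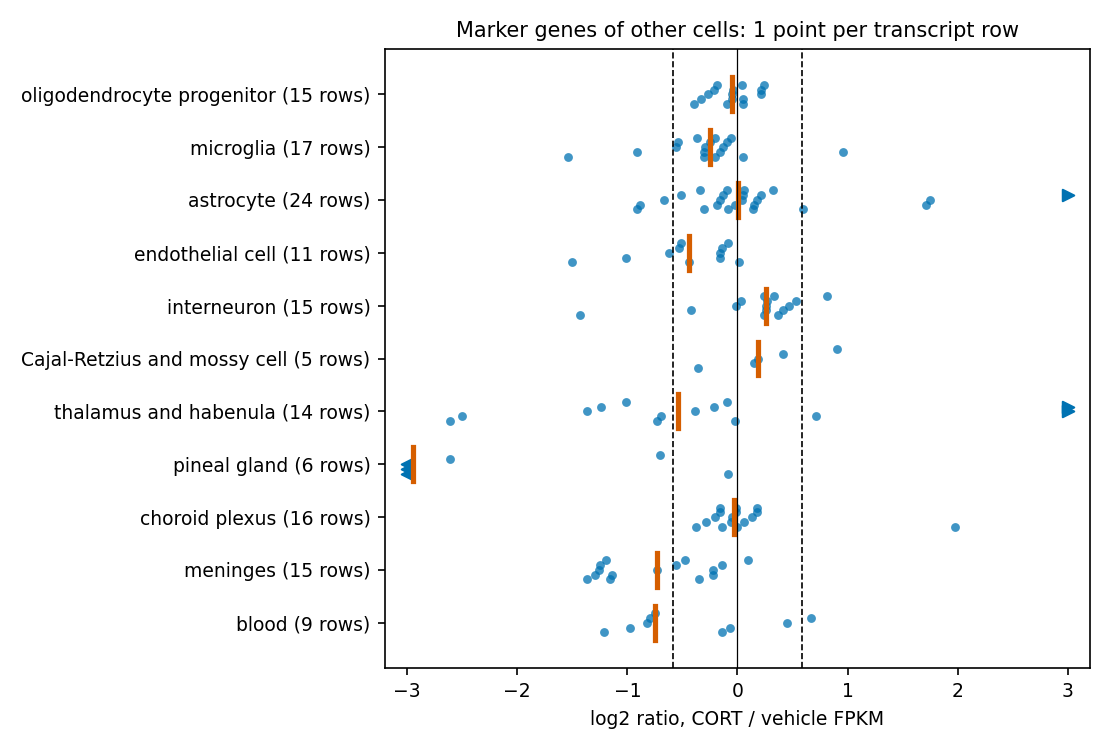
Log2 ratio of CORT over vehicle FPKM (x axis) for each transcript row of 11 lists of markers of other cells (y axis), with 1 point per row, a thick bar at the median and dashed lines at 1.5-fold; triangles at the edge are rows past a log2 ratio of 3 in size. The medians of meninges (-0.73) and blood (-0.75) lie to the left, whereas those of oligodendrocyte progenitors (-0.05) and choroid plexus (-0.03) are near 0.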

How the data were processed

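Hippocampal RNAseq of 8 ADX rats (4 vehicle, 4 CORT) was used, with groups taken from the treatment label. Per the methods and the submitters' processing notes, the authors aligned paired-end reads to rn6 with TopHat2 2.0.10 (CASAVA 1.8.2 for base calls) and compared the groups with Cuffdiff 2.2.0, using geometric normalization and a minimum alignment count. The authors deposited 1 FPKM value per Ensembl transcript and group, and values per rat were not analysed here. The deposited table also holds the authors' own fold changes, test statistics, p-values, q-values and calls, which were not used. Pooling hides the spread between rats, and the depth per library is unknown, so no interval or limit of detection could be given and no test was run.

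The log2 ratio was computed without a pseudocount. The 10 members and the other lists were chosen with earlier results of these data known. Every member row is given. Of other lists, up to 6 genes of the programme lists and up to 3 of the rest with the largest absolute log2 ratio and at least 1 FPKM in one group were eligible to be named, and others are marked. Symbols were matched exactly, and no missing gene was found under a synonym in the RefSeq table of GRCr8. Alternatives were pseudocounts of 1 and 0.1 FPKM, a filter of 1 FPKM, summed or single rows per symbol, centring, and a lower and a higher fold threshold. A filter on the mean FPKM was added after the data were seen. Computations, checked on a simulated table, were run in Python 3.11.15 (numpy 2.4.6, pandas 2.3.3), and figures were drawn with matplotlib 3.10.9. Coordinates are those of the deposited table (rn6), and promoter windows are from RefSeq (GRCr8).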

Additional observations from a re-analysis of the deposited data

How the results depend on the processing

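The count of 4 lower members (Cdk1, Top2a, Mki67 and Sox2) was found with a pseudocount of 0.1 FPKM, with both filters, with summed or single rows per symbol and with centring on the median. In these settings 3.66% to 5.21% of all rows or symbols were lower. With a pseudocount of 1 FPKM, 3 were lower, without Mki67, against 2.35% of all rows lower. With a threshold of 2-fold, 2 were past it, Cdk1 and Top2a, against 2.03% of all rows lower. With a lower threshold, 0.32 on the log2 scale, 5 rows were lower and 1 was higher, against 10.8% of all rows lower. The share of all rows higher at that threshold is not given here. With a pseudocount of 1 FPKM the median of the members was -0.18 and that of the G2 and mitosis list -0.27. The median of the stem cell list was -0.32 with the row of highest mean FPKM per symbol, and also with rows of a mean of at least 1 FPKM, a filter chosen after the data were seen. The medians of the members and of the stem cell, DNA replication, G2 and mitosis, and neuroblast lists did not change sign under the alternatives run. For single members, the log2 ratio moved by over 0.1 in 5 of 10 rows with a pseudocount of 1 FPKM and in 2 with one of 0.1 FPKM. Leaving out single rats and tests between groups were not run, since only group values were used. No paired analysis was possible because the table gives 1 value for each group.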

Other observations

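Cdkn1a encodes p21, an inhibitor of cyclin-dependent kinases that can halt the cell cycle, and both of its rows were higher after CORT. They were at 6.61 and 5.13 FPKM after vehicle and at 11.9 and 9.30 FPKM after CORT, log2 ratios of 0.85 and 0.86. It was named after its values were seen.

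Among the genes of both division lists, the rows of highest level had the median nearest to 0. The 4 rows over 10 FPKM had a median log2 ratio of -0.21 and none of them was past 1.5-fold. The 40 rows of 1 to 10 FPKM had a median of -0.35, and the 7 rows under 1 FPKM one of -1.25. For all rows of these classes, in the same order, the medians were 0.03, 0.00 and -0.10. The shares lower by more than 1.5-fold were 1.09%, 6.30% and 28.0%, so the share also depends on level over all rows. The last class holds only rows that reach 0.80 FPKM in one of the groups. Pcna, named after its values were seen, was the highest of these genes, at 45.1 FPKM after vehicle and 36.6 FPKM after CORT.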
